A study of Saccharomyces cerevisiae with 21 samples.

Results

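The 9 cyclin genes that drive the budding yeast division cycle, CLN1, CLN2, CLN3 and CLB1 to CLB6, and SIC1, the gene for an inhibitor of cyclin-dependent kinase, were examined in mRNA-seq of cells depleted of Sth1, Rap1 or both proteins. These 10 genes were taken from the 6692 genes of the count table by their systematic names and not by a cut on any measured value. Earlier results of these data were known when they were chosen. All 10 were among the 6254 genes that passed the filter on low counts. Sth1 is the ATPase of RSC, a complex that remodels nucleosomes at promoters, and Rap1 is a general regulatory factor that binds DNA at many promoters and at telomeres.

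Cells carrying an auxin-inducible degron (AID) allele were treated in exponential growth with 500 µM indole-3-acetic acid (IAA), which directs the tagged protein to degradation, or with the solvent DMSO. The groups were STH1-AID with IAA or DMSO (STH1-3V5-IAA7), RAP1-AID with IAA or DMSO (RAP1-3V5-IAA7), STH1-AID RAP1-AID (the double strain) with both alleles and IAA or DMSO, and untreated wild type (WT). Each of these 7 groups had 3 biological replicates. All strains were haploid MATa derivatives of BY4741 with his3D1, leu2D0, met15D0, ura3D0 and RPB3-3xFLAG. The 3 degron strains also carried osTIR, the plant F-box protein that recognises the degron in the presence of auxin, under the GPD1 promoter, and WT did not. All libraries with IAA came from tagged strains, so IAA itself and the loss of the protein cannot be told apart. By the labels, DMSO libraries differed from WT by the tag, osTIR and the solvent together.

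Libraries held between 20901972 and 29090954 counts over S. cerevisiae genes, and the 10 genes had between 237 and 7966 raw counts in every library. A degron removes protein, so STH1 and RAP1 mRNA do not test the labels. With S. pombe scaling, STH1 mRNA was 10755, 16482 and 13714 normalised counts in STH1-AID with IAA against 9627, 9846 and 18825 with DMSO. RAP1 mRNA was 6339, 5828 and 6140 in RAP1-AID with IAA against 5251, 5191 and 6454 with DMSO. The groups overlapped for both genes on that scale, but not in raw counts. In raw counts STH1 was 13502, 14867 and 17853 with IAA against 8911, 8394 and 10970 with DMSO. RAP1 was 6595, 6326 and 6758 with IAA against 4600, 4312 and 4290 with DMSO. MET17, the gene deleted in met15 strains, was at 1 to 16 raw counts in all 6 STH1-AID libraries and at 2373 to 7502 in the other 15, although every strain is labelled as met15D0. STH1-AID thus differed from WT and from the other degron strains in MET17 reads as well. The part of this difference in comparisons of STH1-AID with those strains was not tested. All 7 a-specific genes were detected, at 981 to 2770 summed CPM, as the mating type label states. Of the alpha-specific genes, MF(ALPHA)1 had 0 to 56, MF(ALPHA)2 0 to 28, STE3 1 to 468 and SAG1 1131 to 6558 raw counts, and MF(ALPHA)1 was highest in STH1-AID RAP1-AID with IAA, at 33 to 56. The part of these alpha-gene reads in the results was not tested.

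Cyclins are unstable activating subunits of the kinase Cdc28. Cln3 starts the cycle in G1 by acting on the transcription factors SBF and MBF, which in turn switch on CLN1 and CLN2, the cyclins of budding and commitment, and CLB5 and CLB6, the cyclins of DNA replication. CLB3 and CLB4 are expressed around spindle formation, CLB1 and CLB2 drive mitosis under Mcm1, Fkh2 and Ndd1, and SIC1, which Swi5 induces as cells leave mitosis, restrains Clb kinases until Cln kinases mark Sic1 for destruction.

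The pairs of related genes lie apart or tail to tail in the genome. On the R64 build CLN1 (YMR199W) spans chrXIII:662644-664284, CLN2 (YPL256C) chrXVI:64977-66614, CLN3 (YAL040C) chrI:65778-67520, CLB3 (YDL155W) chrIV:176773-178056, CLB4 (YLR210W) chrXII:562008-563390 and SIC1 (YLR079W) chrXII:286820-287674. CLB1 (YGR108W, chrVII:703636-705051) and CLB6 (YGR109C, chrVII:705359-706501) converge with 307 bases between them, and CLB2 (YPR119W, chrXVI:771653-773128) and CLB5 (YPR120C, chrXVI:773875-775182) converge with 746 bases between them. CLB4 shares a divergent promoter region of 275 bases with PNP1, and SIC1 shares 260 bases with BOS1. None of the 10 genes overlaps another annotated gene. All 10 intervals are those of whole genes, and start and end were the same in the count table and in the RefSeq annotation.

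Sequence upstream of the cyclin genes is shown for the genes of the pairs whose mRNAs parted below other than CLB5, since SBF, MBF, Mcm1 and forkhead factors are known to act on cyclin promoters. Each line is the stretch of 100 bases, within the 1000 bases before the start codon, that held most matches to the letters named for it, printed 5′ to 3′ on the strand of the gene with matches in capitals. For CLN1, CLN2 and CLB6 the letters were CNCGAAA, the SBF site (SCB), and ACGCGT, the MBF site (MCB). For CLB1, CLB2, CLB3 and CLB4 they were CC and GG with 6 bases between them, the core of the Mcm1 site, and GTAAACA, the forkhead site. CLB5 held none of the SBF and MBF letters in that window, so no stretch of it is printed, and CLB3 held 1 Mcm1 match and no forkhead match. The CLB3 stretch lies 933 to 834 bases before the start codon. That is beyond the near end of the neighbouring gene CMR1, 286 bases upstream, and so outside the intergenic region before CLB3. The stretches lie at chrXIII:662192-662291 (plus strand), chrXVI:67121-67220 (minus strand), chrVII:706805-706904 (minus strand), chrVII:703008-703107 (plus strand), chrXVI:770889-770988 (plus strand), chrIV:175840-175939 (plus strand) and chrXII:561847-561946 (plus strand) of R64.
CLN1: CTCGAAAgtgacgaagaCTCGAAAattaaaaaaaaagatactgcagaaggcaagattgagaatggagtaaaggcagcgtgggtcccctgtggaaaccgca
CLN2: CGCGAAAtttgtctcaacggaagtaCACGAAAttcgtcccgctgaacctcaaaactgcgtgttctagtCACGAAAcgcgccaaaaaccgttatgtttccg
CLB6: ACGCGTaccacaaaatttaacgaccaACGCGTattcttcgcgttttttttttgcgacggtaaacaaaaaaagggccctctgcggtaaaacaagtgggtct
CLB1: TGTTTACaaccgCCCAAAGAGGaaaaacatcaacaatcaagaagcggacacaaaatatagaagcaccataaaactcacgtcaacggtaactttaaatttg
CLB2: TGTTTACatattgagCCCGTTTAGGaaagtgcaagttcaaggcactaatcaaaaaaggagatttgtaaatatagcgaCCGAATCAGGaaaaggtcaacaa
CLB3: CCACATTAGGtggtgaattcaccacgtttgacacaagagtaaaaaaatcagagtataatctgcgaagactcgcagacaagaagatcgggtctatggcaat
CLB4: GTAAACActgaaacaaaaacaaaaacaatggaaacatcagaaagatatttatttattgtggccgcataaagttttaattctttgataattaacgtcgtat

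Counted on both strands over the 1000 bases, the SBF letters occurred 4 times before CLN2, 3 times before CLN1, 2 times before CLB4 and 1 time each before CLB1 and SIC1, and 34.2% of 5996 such windows of all genes held at least 1. The MBF letters occurred 2 times before CLB6 and 1 time each before CLN1 and CLB2, against 8.5% of windows. The forkhead letters occurred 1 time each before CLN1, CLB1, CLB2, CLB4 and CLB6, against 17.8%, and the Mcm1 letters, present in 77.1% of windows, occurred before 9 of the 10 genes. Before CLB1 and CLB2 a forkhead match stood directly upstream of an Mcm1 match, as the capitals show. Swi5 letters (ACCAGC, 29.9% of windows) occurred before CLB4 and CLB5, and Rap1 core letters (ACCCNNACA, 9.7%) before none of the 10. In the shorter window of 250 bases before to 50 after the start codon, CACGAAA was present only for SIC1 (4.2% of 6001 windows), GTAAACA only for CLB4 (6.5%), and ACGCGT (3.1%) and ACCAGC (8.1%) for none. Letters tied to RSC, CGCG or CGGG, were in that window of CLN2, CLB3, CLB5 and SIC1 (56.3% of windows), and a run of 7 A bases was in that of CLB2 and CLB5 (49.9%). A match describes letters and not binding, and the longer window was chosen after the shorter one had been searched. For CLB3, CLB4, CLB5, CLB6 and SIC1 the longer window ran past the nearest upstream gene, at 286, 275, 582, 606 and 260 bases. Matches counted for them need not lie in a promoter.

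Changes are given on 2 scales. The study added S. pombe cells as a spike-in, and normalised counts, scaled by the S. pombe size factors, follow mRNA relative to the S. pombe cells mixed in. TMM scaling sets the bulk of genes at no change, and its values, CPM, are scaled to library size and follow a gene's share of the mRNA. With S. pombe scaling the median of all genes was -0.84 log2 with IAA in STH1-AID, -0.26 in RAP1-AID and -0.67 for the double strain, and TMM scaling raised all genes by 0.89, 0.33 and 0.68 relative to that scale. A gene was called where the edgeR adjusted p was below 0.05 and the log2 fold change was beyond 1 in either direction. In cultures that were not synchronised, fewer cells in a phase and less mRNA per cell cannot be told apart.

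**Figure D1:**
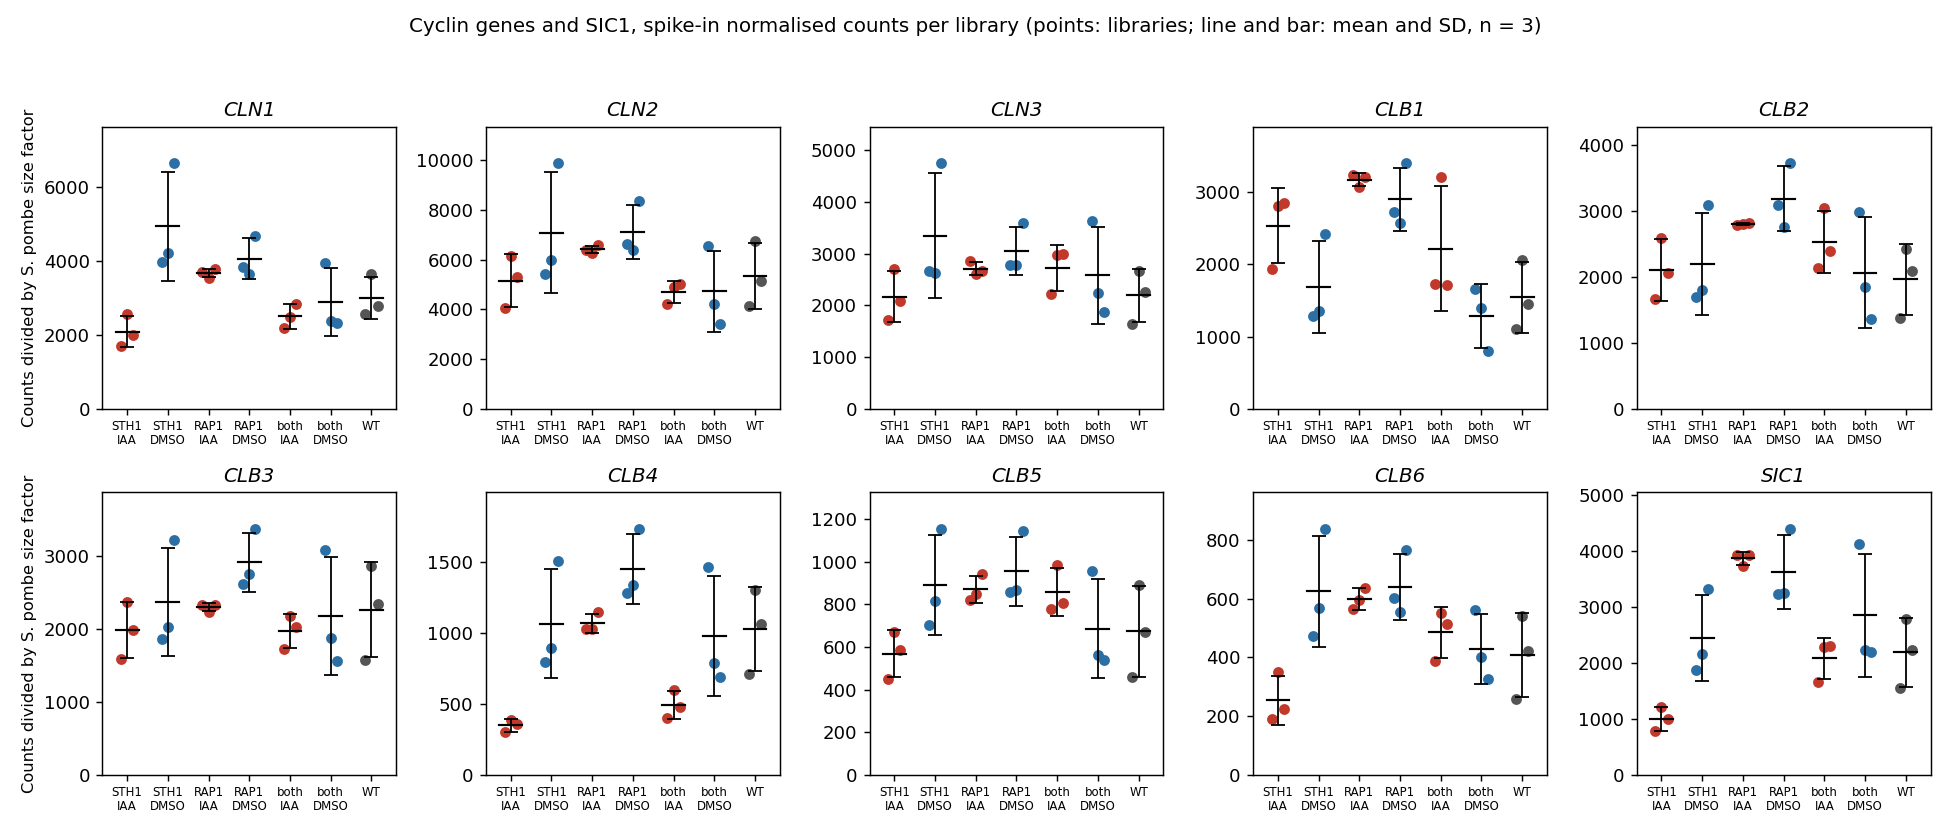
Normalised counts scaled by S. pombe size factors (y axis, linear from 0) in each of 21 libraries for the 10 genes, with IAA libraries in red, DMSO libraries in blue and WT in grey; "both" is STH1-AID RAP1-AID, and line and bar are mean and SD of 3. CLN1, CLB4, CLB5, CLB6 and SIC1 sat lower in all 3 STH1-AID IAA libraries than in all 3 DMSO libraries, as did 56.7% of all genes. CLB1 and CLB2 overlapped.

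By length, the order of the mRNAs in WT was headed by CLN2 at 121 ± 3.96 TMM-scaled CPM per kb (mean ± SD, n = 3), followed by SIC1 at 94.1 ± 5.03 and CLN1 at 68.5 ± 7.1. CLB3 (64.6 ± 4.43), CLB2 (48.9 ± 3.5), CLN3 (46.7 ± 1.26) and CLB1 (39.9 ± 3.25) came next, and CLB4 (27.2 ± 1.86), CLB5 (18.8 ± 1.64) and CLB6 (13 ± 1.75) were lowest. CLN1 and CLB3, and CLB2 and CLN3, were within 1 SD of each other. In STH1-AID with IAA the mitotic cyclin CLB1 stood next to the top at 114 ± 9.32 CPM per kb, below CLN2 at 199.8 ± 0.979, while with DMSO it was seventh at 40.5 ± 1.18. SIC1 went the other way in that strain, at 73.5 ± 2.2 with IAA, in place 7, and 98.8 ± 4.78 with DMSO, in place 3. In RAP1-AID with IAA, SIC1 was the most abundant of the 10, at 146 ± 1.89 against 126 ± 1.73 for CLN2. In STH1-AID RAP1-AID with IAA, CLB4 was the lowest at 20.8 ± 0.792, below CLB6 at 25.1 ± 1.93, and the 5 genes from CLB2 to CLB1 in that order of levels differed by less than their spread from neighbour to neighbour.

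In Sth1-depleted cells CLN1, CLB4, CLB6 and SIC1 fell, with log2 fold changes between -1.61 and -1.24, and no gene of the 10 was called higher with S. pombe scaling. The 4 falls are 4 of 10 genes, against 42.7% of all genes called lower and 4.69% called higher in this comparison, so the share was near that of the genome. In mean TMM-scaled CPM, CLN1 was 133 with IAA, 171 with DMSO and 112 in WT, and CLB6 was 15.9, 21.6 and 14.8. In the same order CLB4 was 22.2, 36.2 and 37.6, and SIC1 was 62.8, 84.4 and 80.5. CLN1 and CLB6 thus fell from DMSO levels above WT and were not below WT on that scale. On the S. pombe scale, where the falls were called, both means with IAA were below WT. In mean normalised counts CLN1 was 2088 with IAA, 4944 with DMSO and 3000 in WT, and CLB6 was 254, 626 and 408. IAA libraries were not tested against WT. Related cyclins parted from each other: the ratios of CLB4 to CLB3, CLN1 to CLN2 and CLB6 to CLB5 were lower with IAA, and that of CLB1 to CLB2 was higher. These pair ratios, other than CLN2 to CLB2, were chosen after the values were seen and are descriptions with no test.

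CLB4, a B-type cyclin of spindle assembly, was 297, 387 and 356 normalised counts with IAA, against 796, 888 and 1503 with DMSO, and the groups did not overlap, as for 56.7% of all genes with IAA below. Its log2 fold change was -1.61 (SE 0.31, edgeR adjusted p = 8.66e-07), the largest fall of the 10. CLB3, which acts at the same stage, was 1590, 2365 and 1986 with IAA and 1862, 2021 and 3218 with DMSO, and these groups overlapped (log2 fold change -0.26, edgeR adjusted p = 0.479). The log2 ratio of CLB4 to CLB3 counts within a library, which no scaling can alter, was -2.42, -2.61 and -2.48 with IAA and -1.23, -1.19 and -1.10 with DMSO. The difference of -1.33 was many times the SD of the ratio in either group (0.0979 with IAA and 0.0656 with DMSO, n = 3).

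The mitotic cyclins CLB1 and CLB2 did not pass the test with S. pombe scaling, and both were higher relative to the bulk of genes with IAA. CLB1 was 1936, 2815 and 2852 normalised counts with IAA, against 1290, 1352 and 2418 with DMSO, or 0.59 log2 (SE 0.31, edgeR adjusted p = 0.0848). With TMM scaling it was 157, 151 and 176 CPM with IAA and 57.3, 55.7 and 59 CPM with DMSO. All 3 libraries with IAA were above all 3 with DMSO on that scale, as for 42.8% of all genes, and CLB1 was called higher (1.49, edgeR adjusted p = 2e-09), against 15.4% of all genes called higher and 15.4% lower with TMM. CLB2 was 134, 138 and 126 CPM with IAA and 75.5, 73.7 and 75.3 CPM with DMSO (0.83, edgeR adjusted p = 5.46e-11), short of a 2-fold change, and its S. pombe-scaled value was -0.062 (edgeR adjusted p = 0.872). Within a library the log2 ratio of CLB1 to CLB2 was 0.22, 0.12 and 0.48 with IAA and -0.40, -0.41 and -0.35 with DMSO, so CLB1 counts were above CLB2 counts in all 3 libraries with IAA and below them in all 3 with DMSO.

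The G1 cyclins CLN1 and CLN2, which largely share their function, parted by 0.80 log2. CLN1 was 1711, 2554 and 1998 normalised counts with IAA, against 3960, 4225 and 6646 with DMSO, and fell by 1.24 log2 (edgeR adjusted p = 0.000215). Without STH1-AID DMSO replicate 3, the library with 22.2 S. cerevisiae counts per S. pombe count, CLN1 was at -0.97 and no longer called. CLN2 was 4040, 6151 and 5287 with IAA and 5423, 5969 and 9883 with DMSO, overlapping groups (-0.46, edgeR adjusted p = 0.201). With TMM scaling CLN2 was 327, 329 and 326 CPM with IAA and 241, 246 and 241 CPM with DMSO (0.43). The log2 ratio of CLN2 to CLN1 was 1.24, 1.27 and 1.40 with IAA and 0.45, 0.50 and 0.57 with DMSO, and the groups did not overlap. CLN3, the activator upstream of both, was 139.6, 145 and 128 CPM with IAA and 118, 108 and 116 CPM with DMSO (-0.63 with S. pombe scaling, 0.27 with TMM).

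Of the S-phase cyclins, CLB6 was 189, 349 and 223 normalised counts with IAA, against 472, 568 and 837 with DMSO, and fell by 1.30 log2 (edgeR adjusted p = 9.04e-05). CLB5 was 449, 669.6 and 585 with IAA and 704, 818 and 1153 with DMSO, and although its groups did not overlap its value of -0.65 missed the threshold (edgeR adjusted p = 0.0519). The log2 ratio of CLB6 to CLB5 was -1.25, -0.94 and -1.39 with IAA and -0.58, -0.53 and -0.46 with DMSO, a difference of -0.67.

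SIC1 mRNA was 776, 1211 and 989 normalised counts with IAA, against 1871, 2163 and 3326 with DMSO, and fell by 1.31 log2 (SE 0.31, edgeR adjusted p = 9.22e-05). Set against a mitotic cyclin whose kinase it inhibits, the log2 ratio of SIC1 to CLB2 was -1.10, -1.09 and -1.05 with IAA and 0.14, 0.27 and 0.11 with DMSO, a difference of -1.25. SIC1 was thus below CLB2 in counts in all 3 libraries with IAA and above it in all 3 with DMSO. The log2 ratio of SIC1 to CLB5 was 0.79, 0.85 and 0.76 with IAA and 1.41, 1.40 and 1.53 with DMSO, a smaller difference of -0.65. Its DMSO libraries were below WT, at 1.76, 1.65 and 1.74. With TMM scaling the 4 genes that fell were at -0.36 (CLN1), -0.71 (CLB4), -0.44 (CLB6) and -0.43 (SIC1), all with an edgeR adjusted p under 0.05 but none beyond a 2-fold change, and the other 6 had positive values, also with an adjusted p under 0.05. Over all genes 37.5% were negative and 39.9% positive by that adjusted p.

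**Figure D2:**
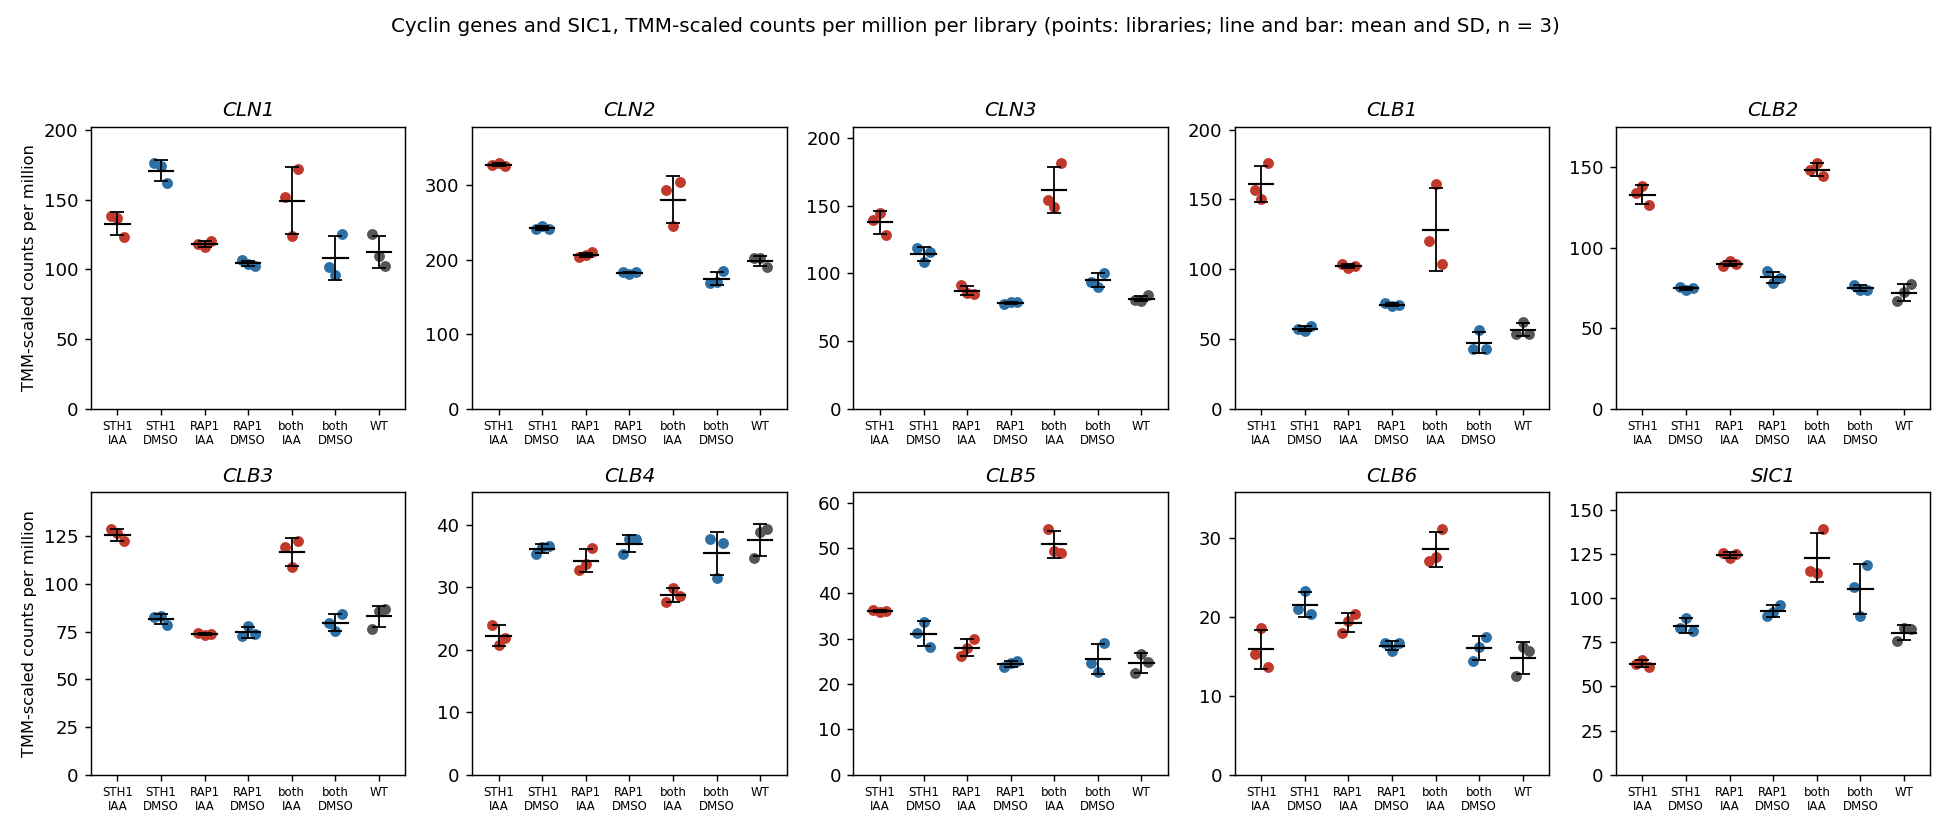
TMM-scaled CPM (y axis, linear from 0) of the 10 genes in each of 21 libraries, colours and labels as in the plot of spike-in normalised counts, with mean and SD of 3. All 3 IAA libraries were above DMSO for 42.8% and below for 40% of all genes in STH1-AID on this scale. There CLB1, CLB2, CLB3, CLB5, CLN2 and CLN3 were higher in all 3 STH1-AID IAA libraries than in DMSO, while CLB4, CLB6, CLN1 and SIC1 were lower.

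**Figure D3:**
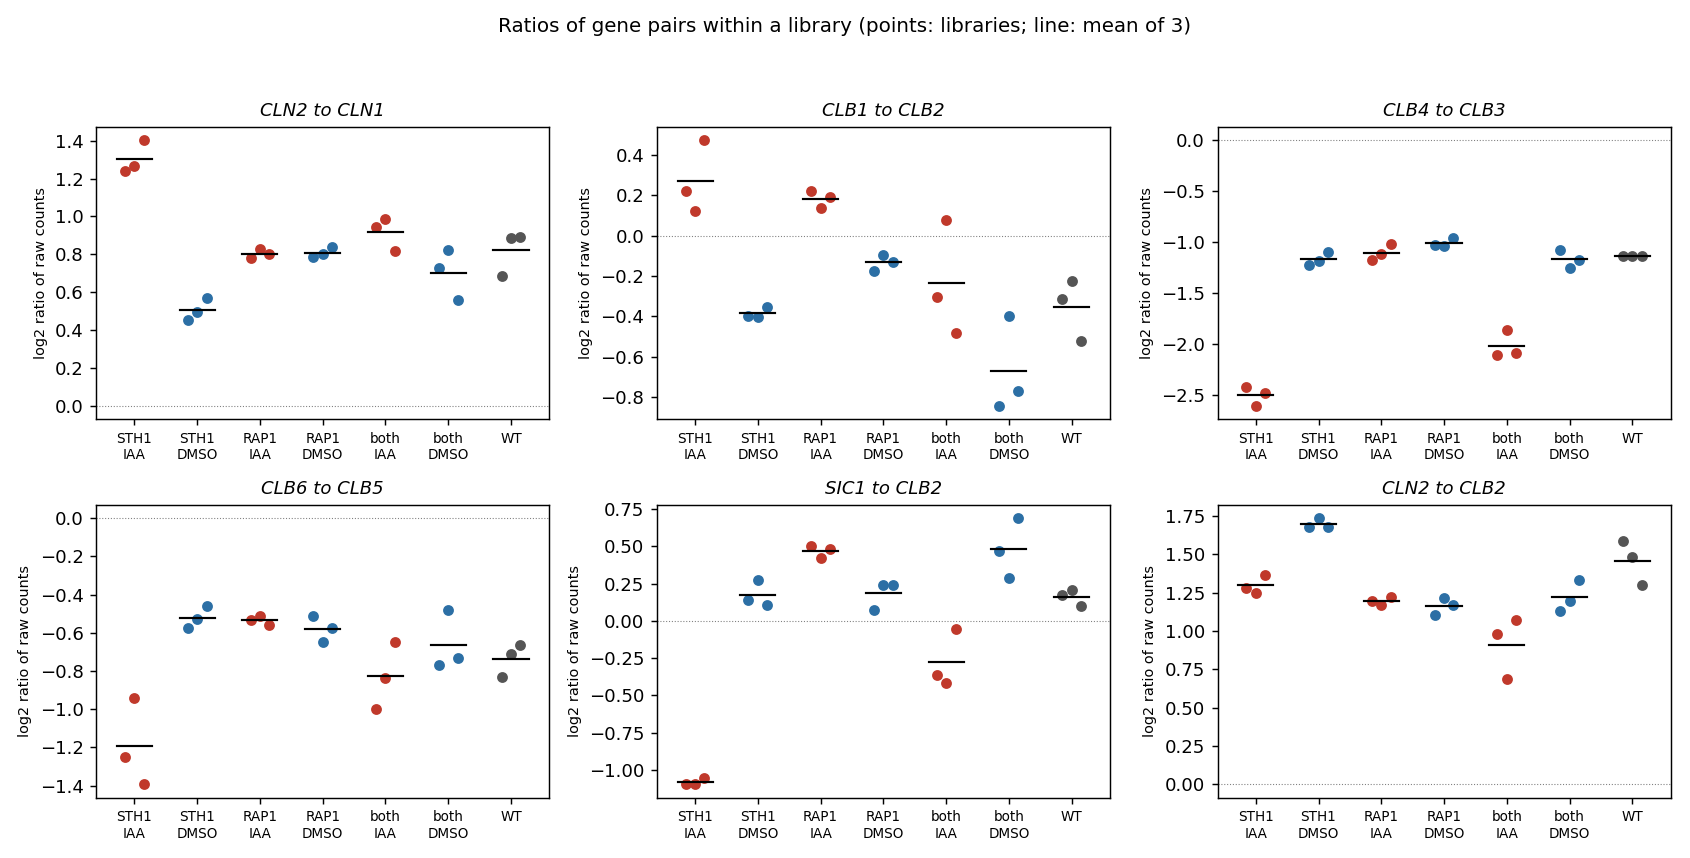
Log2 ratio of raw counts of gene pairs (y axis) within each library, by group, with IAA in red, DMSO in blue and WT in grey and a line at the mean of 3; "both" is STH1-AID RAP1-AID. CLB4 to CLB3 was near -2.5 in STH1-AID with IAA and near -2.02 in STH1-AID RAP1-AID with IAA, and between -1.26 and -0.96 in the other 15 libraries.

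In Rap1-depleted cells none of the 10 genes was called on either scale, with 0.4% of all genes called higher and 4.09% lower on the S. pombe scale, and 0.991% and 3.07% with TMM. Log2 fold changes lay between -0.44 (CLB4) and 0.13 (CLB1), and with edgeR 0 of 10 had an unadjusted p under 0.05 with S. pombe scaling, 7 of 10 with TMM, of which 2 had an adjusted p under 0.05 (10.1% of all genes positive and 6.35% negative). The 2 were SIC1, at 126, 123 and 125 CPM with IAA against 89.6, 92.3 and 96 CPM with DMSO (0.43, 95% interval 0.25 to 0.60, edgeR adjusted p = 0.00114), and CLB1, at 103, 101 and 102 CPM with IAA against 75.6, 73.3 and 74.3 CPM with DMSO (0.46, edgeR adjusted p = 0.013). Both were under a 2-fold change, and their 3 libraries with IAA were above all 3 with DMSO, as for 40.9% of all genes on that scale. Their S. pombe-scaled values were 0.094 for SIC1 and 0.13 for CLB1, with 95% intervals that included 0 (-0.51 to 0.70 and -0.47 to 0.73). Of the pair ratios, the differences between IAA and DMSO were -0.095 for CLB4 to CLB3, -0.0041 for CLN2 to CLN1 and 0.042 for CLB6 to CLB5, and their groups overlapped. CLB1 to CLB2 was higher with IAA by 0.32, without overlap. SIC1 to CLB2 was 0.50, 0.42 and 0.48 with IAA and 0.071, 0.24 and 0.24 with DMSO, so it was higher with IAA here and lower with IAA in STH1-AID.

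When Sth1 and Rap1 were depleted together, none of the 10 genes was called with S. pombe scaling, against 3.49% of all genes called higher and 32.6% lower. CLB4 and CLB1 came nearest, in opposite directions. IAA and DMSO libraries of the same replicate number deviated together in this strain, so the fit with a replicate block stands beside each. CLB4 was 398, 597 and 474 normalised counts with IAA, against 1463, 783 and 689 with DMSO (-0.997, edgeR adjusted p = 0.00314, and -0.93 with adjusted p = 0.241 with the block). CLB1 was 1730, 3215 and 1711 with IAA, against 1662, 1392 and 799 with DMSO (0.79, edgeR adjusted p = 0.0228, and 0.79 with adjusted p = 0.326 with the block). The IAA groups were below DMSO for CLB4 and above it for CLB1 without overlap, as for 41.8% of all genes below and 3.89% above. CLB4 was called lower without DMSO replicate 2 (-1.13), DMSO replicate 3 (-1.2) or IAA replicate 2 (-1.16), and CLB1 was called higher without DMSO replicate 1 (1.02).

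Relative to the bulk of genes, with TMM scaling, 9 of the 10 genes had positive values in this strain. CLB1 was 120.5, 161 and 103 CPM with IAA and 42.8, 56.1 and 43.1 CPM with DMSO, and was called higher with TMM (1.44, edgeR adjusted p = 6.21e-09), against 8.65% of all genes called higher and 6.57% lower. CLB5 was 54.1, 49.3 and 48.8 CPM with IAA and 24.6, 22.7 and 29.1 CPM with DMSO, and CLB2 was 149, 153 and 145 with IAA and 77, 74 and 73.6 with DMSO. These 2 genes, of S phase and of mitosis, stood just under the 2-fold line at 1.00 and 0.99. Positive values with an edgeR adjusted p under 0.05 were also found for CLB6 (0.83), CLN3 (0.77), CLN2 (0.69), CLB3 (0.55), CLN1 (0.47) and SIC1 (0.23), and CLB4 was the only negative value (-0.30), on a scale where 35.4% of all genes were positive and 36.4% negative by the same adjusted p. The log2 ratio of CLB4 to CLB3 was -2.11, -1.86 and -2.09 with IAA and -1.08, -1.26 and -1.18 with DMSO, and SIC1 to CLB2 was -0.36, -0.42 and -0.057 with IAA and 0.47, 0.28 and 0.69 with DMSO. Both ratios were lower with IAA in all 3 libraries, as in STH1-AID. CLB1 to CLB2 was -0.30, 0.078 and -0.48 with IAA and -0.85, -0.40 and -0.77 with DMSO in replicates 1 to 3, and CLN2 to CLN1 was 0.95, 0.98 and 0.82 with IAA and 0.73, 0.82 and 0.56 with DMSO. These groups overlapped, but between libraries of the same number, taken as pairs here, both ratios were higher with IAA in 3 of 3 pairs, the direction seen in STH1-AID. CLB6 to CLB5 was lower with IAA in 2 of the 3 pairs.

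**Figure D4:**
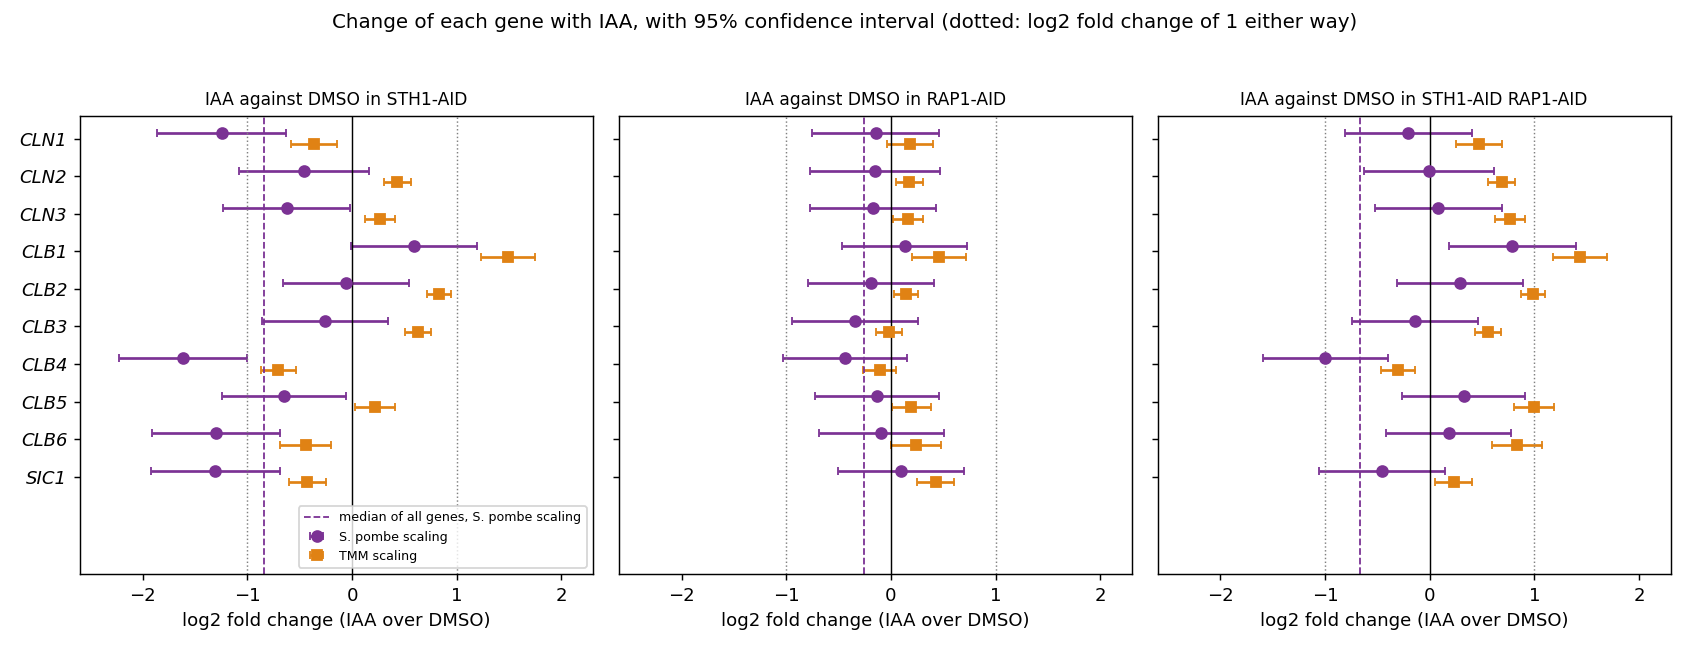
Log2 fold change of IAA over DMSO (x axis) with its 95% confidence interval for the 10 genes in each degron strain, circles with S. pombe scaling and squares with TMM, dashed line at the median of all genes with S. pombe scaling and dotted lines at a 2-fold change. CLN1, CLB4, CLB6 and SIC1 lay left of -1 in STH1-AID with S. pombe scaling, and CLB1 lay right of 1 with TMM in STH1-AID and the double strain.

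The response to IAA itself was compared between strains with an interaction term. Relative to STH1-AID, the response in RAP1-AID was higher by 1.40 log2 for SIC1 (SE 0.44, edgeR adjusted p = 0.00558), 1.21 for CLB6, 1.18 for CLB4 and 1.10 for CLN1. These 4 of 10 calls stand against 32.3% of all genes called higher and 6.27% lower in the same contrast. Only SIC1 kept its call whichever library was left out. The CLN1 call was lost without STH1-AID DMSO replicate 3, STH1-AID IAA replicate 1 or 3, RAP1-AID DMSO replicate 1 or 2 or any of the 3 RAP1-AID IAA replicates, CLB4 without STH1-AID DMSO replicate 3, STH1-AID IAA replicate 1 or RAP1-AID DMSO replicate 1 or 2, and CLB6 without STH1-AID DMSO replicate 3, STH1-AID IAA replicate 1 or 3 or RAP1-AID DMSO replicate 2, with 1 to 4 genes called in all. With TMM none of the 4 passed a 2-fold difference, SIC1 being nearest at 0.85 (edgeR adjusted p = 3.61e-06), and CLB1 was called lower in RAP1-AID (-1.03, edgeR adjusted p = 2.82e-05), with 15% of all genes called lower and 17.3% higher. By TMM adjusted p alone, 8 of the 10 differed between these strains, where 36.9% of all genes differed upward and 34.2% downward.

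CLB6, an S-phase cyclin, was the gene whose response differed between the double strain and STH1-AID. Its response was 1.48 log2 higher in STH1-AID RAP1-AID (edgeR adjusted p = 0.0317), where 1.28% of all genes were called higher, and 1.28 higher with TMM (edgeR adjusted p = 3.54e-06), where 2.96% were called higher and 5.85% lower. By TMM adjusted p alone, 7 of the 10 differed, where 25.2% of all genes differed upward and 15.6% downward. In CPM it was 27.1, 27.7 and 31.2 with IAA and 14.4, 16.2 and 17.5 with DMSO in STH1-AID RAP1-AID, and 15.3, 18.7 and 13.7 with IAA and 21, 23.4 and 20.4 with DMSO in STH1-AID. The groups separated in each strain, IAA above DMSO in STH1-AID RAP1-AID, as for 30.5% of all genes, and IAA below DMSO in STH1-AID, as for 40% of all genes. With S. pombe scaling the call was lost with a replicate block (1.51, edgeR adjusted p = 0.323), in a fit of the compared libraries alone (1.48, edgeR adjusted p = 0.238) and without any of 7 libraries, namely STH1-AID DMSO replicate 3, STH1-AID IAA replicate 1 or 3, and replicate 2 or 3 of DMSO or of IAA of the double strain, with 0 to 4 of the 10 genes called, 4 of them without DMSO replicate 1 of the double strain. Between the double strain and RAP1-AID no gene of the 10 differed by a call on either scale, with 1.5% of all genes called higher and 9.79% lower on the S. pombe scale, and 5.9% and 6.4% with TMM. By edgeR 0 of 10 had an unadjusted p under 0.05 there with S. pombe scaling and 7 of 10 with TMM, all 7 also after adjustment (27.2% of all genes upward and 32.5% downward), the largest being CLB1 at 0.98 (edgeR adjusted p = 8.32e-05).

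Without IAA, no gene of the 10 was called in any of the 3 comparisons of DMSO with WT, on either scale, which share the 3 WT libraries. With S. pombe scaling 1.04% of all genes were called higher and 0.352% lower in STH1-AID, 11.9% and 0.895% in RAP1-AID, and 5.21% and 1.71% for the double strain. With TMM the shares were 1.2% and 0.56%, 4.59% and 2.48%, and 6.33% and 1.81% in the same order. By edgeR, 3, 4 and 0 of the 10 had an unadjusted p under 0.05 in STH1-AID, RAP1-AID and the double strain with S. pombe scaling, and 5, 4 and 3 with TMM, of which 5, 3 and 3 had an adjusted p under 0.05. The G1 and S-phase cyclins CLN1, CLN2, CLN3, CLB5 and CLB6 had positive TMM values with an adjusted p under 0.05 in STH1-AID with DMSO, as did 7.74% of all genes, and 7.34% were negative. CLN1 was 176, 174 and 162 CPM there and 125, 109 and 103 CPM in WT (0.60 with TMM, edgeR adjusted p = 0.000757), CLB6 was 21, 23.4 and 20.4 CPM and 12.5, 16.2 and 15.7 CPM in WT (0.54), and CLN3 was 118, 108 and 116 CPM and 80.4, 79.8 and 83.8 CPM in WT (0.49). None of these passed the test with S. pombe scaling, where CLN1 was 0.72 (edgeR adjusted p = 0.504). The log2 ratio of CLN2 to CLN1 was 0.45, 0.50 and 0.57 in STH1-AID with DMSO and 0.69, 0.89 and 0.89 in WT, so the uninduced strain was already below WT, on the side opposite to its IAA libraries.

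In RAP1-AID with DMSO the mitotic cyclin CLB1 was 2728, 2580 and 3401 normalised counts, against 1105, 2066 and 1456 in WT (0.91, edgeR adjusted p = 0.0224), with no overlap, as for 51.4% of all genes above WT, and just under a 2-fold change, and without WT replicate 2 it was called at 1.18. The median of all genes was 0.52 in that comparison, and TMM gave 0.40 for CLB1, 0.18 for CLB2 and -0.15 for CLB3, where 18.8% of all genes were positive and 24.6% negative by adjusted p. The other 7 genes had a TMM adjusted p above 0.05 in edgeR. In STH1-AID RAP1-AID with DMSO the values with TMM were 0.38 for SIC1 (edgeR adjusted p = 0.00127), 0.22 for CLN3 and -0.18 for CLN2, and the other 7 did not pass, with 20.7% of all genes positive and 24.5% negative. The log2 ratio of CLN2 to CLB2, a G1 cyclin against a mitotic cyclin, was 1.28, 1.25 and 1.37 with IAA and 1.68, 1.74 and 1.68 with DMSO in STH1-AID, 0.98, 0.69 and 1.07 with IAA and 1.13, 1.2 and 1.33 with DMSO in STH1-AID RAP1-AID, and 1.59, 1.48 and 1.30 in WT. It was thus lower with IAA in both strains that carried STH1-AID, and in RAP1-AID IAA and DMSO libraries overlapped. In RAP1-AID it was 1.168 to 1.224 with IAA and 1.104 to 1.213 with DMSO, below every STH1-AID library with IAA. A ratio this low was therefore also found without the STH1-AID allele. In STH1-AID the fall started from DMSO libraries that were all above WT, and its IAA libraries overlapped WT.

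Among partners and regulators of the cyclins, CDC28 and SWI6 fell in Sth1-depleted cells. CDC28, the kinase to which all 9 cyclins bind, fell by 2.07 log2 (edgeR adjusted p = 5.58e-10), at 388 ± 74.3 normalised counts with IAA and 1626 ± 577 with DMSO (mean ± SD, n = 3 each). SWI6, the subunit common to SBF and MBF, fell by 2.15 (edgeR adjusted p = 1.96e-10), at 579 ± 125 with IAA and 2561 ± 787 with DMSO. Both were also called lower with TMM (-1.17 and -1.27). The DNA-binding subunits SWI4 (-0.92) and MBP1 (-0.84), the repressor WHI5 (-0.12), and SWI5 (-0.15), MCM1 (-0.42), FKH2 (-0.62) and NDD1 (-0.25), which act on SIC1 and the mitotic cyclins, were not called. In RAP1-AID none of these was called on either scale. In STH1-AID RAP1-AID CDC28 was -1.45 and SWI6 -1.45, called by edgeR at adjusted p = 2.12e-05 and 2.74e-05 but not with the replicate block (adjusted p = 0.0782 and 0.0825).

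Among the machinery that destroys cyclins and Sic1, 11 of 15 genes of the anaphase-promoting complex were called lower in STH1-AID with IAA, against 42.7% of all genes, with a median of -1.21 against -0.84 over all genes. APC11, its RING subunit, was -3.17 (edgeR adjusted p = 6.49e-19), SWM1 was -2.83, CDH1, the activator of late mitosis and G1, was -1.02, and CDC20, the activator of anaphase, was -0.60 and not called. With TMM 5 of the 15 were lower, against 15.4% of all genes. In STH1-AID RAP1-AID 7 of 15 were lower, against 32.6% of all genes, led by APC11 (-2.56) and CDC26 (-1.94), and 4 were lower with the block and 4 with TMM. Of 6 genes for SCF, the ubiquitin ligase that acts on Sic1 through Cdc4 and on G1 cyclins through Grr1, 3 fell in STH1-AID, a share near the 42.7% of the genome, namely CDC34 (-2.01), SKP1 (-1.76) and CDC4 (-1.45). With TMM only CDC34 (-1.10) of these was called, and SKP1 was -0.88 and CDC4 -0.56. In STH1-AID RAP1-AID 2 of the 6 were lower, CDC34 (-1.38) and SKP1 (-1.18), and 0 with the block or with TMM. Over all genes 506 were called lower with the block, in place of 1950 in a fit of the same libraries without it and 2039 in the fit of all libraries.

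In the CLB2 cluster 0 of 21 genes were called lower and 1 higher in STH1-AID with IAA, against 42.7% and 4.69% of all genes, with a median of -0.16 against -0.84 over all genes. The gene called higher was WSC4, a cell wall sensor (1.10), which was under 1 without STH1-AID DMSO replicate 1 (0.89), DMSO replicate 2 (0.96) or IAA replicate 2 (0.95). In the SIC1 cluster of genes expressed at the end of mitosis, 5 of 19 were lower, a smaller share than over all genes, led by RME1, a repressor of meiosis and activator of CLN2 (-2.28), and PCL9, a Pho85 cyclin (-1.72), with a median of -0.40. Of 36 SBF and MBF targets 11 were lower, also a smaller share than over all genes, led by the replication genes RFA3 (-3.09) and POL1 (-3.00), with a median of -0.65. With TMM the called genes were 4 higher and 0 lower of the CLB2 cluster, 2 higher and 1 lower of the SIC1 cluster, and 4 higher and 5 lower of the SBF and MBF targets, with 15.4% of all genes called in each direction.

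The remaining lists in STH1-AID with IAA stand against the same 42.7% of all genes called lower, and only the Pho85 cyclins exceeded that share. They gave 3 of 8 genes lower for the kinase and its direct regulators, including FAR1, the pheromone-induced inhibitor of Cln kinases (-1.73), and 1 of 10 lower for G1/S factors and repressors, which was SWI6. None of 9 G2/M and M/G1 transcription factors was called. Of 12 genes of the mitotic exit network 4 were lower, led by the kinase CDC15 (-1.82) and BFA1 (-1.51), although with TMM 5 of the 12 were higher and 0 lower. Of the MCM2-7 helicase genes 2 of 6 were lower (MCM2 -2.40, MCM4 -1.81), of the Pho85 cyclins 5 of 10 (PCL9 -1.72, PCL7 -1.70), and of the cyclins of transcriptional kinases 1 of 4 (CCL1 -1.23, and -0.89 without STH1-AID DMSO replicate 3). With TMM, FAR1 (-0.83), CDC15 (-0.93), BFA1 (-0.62), MCM4 (-0.93), PCL9 (-0.84), PCL7 (-0.81) and CCL1 (-0.34) were not called, and of the Pho85 cyclins 0 were lower and 2 higher, PCL5 (1.68) and PCL1 (1.2). In RAP1-AID 1 gene of all 12 lists was called with S. pombe scaling, DBF20, a mitotic exit kinase (1.23, edgeR adjusted p = 0.00169), and with TMM WSC4 (1.03) and SRL3, a homologue of WHI5 (1.01), were called as well. PCL1 and SRL3 were picked out after their values were seen.

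In STH1-AID RAP1-AID, where 32.6% of all genes were called lower, 5 of 36 SBF and MBF targets were lower (RFA3 -1.85, SMC3 -1.30), 2 of 8 of the kinase list (CDC28 and CAK1, -1.03), 2 of 6 MCM2-7 genes (MCM2 -1.51, MCM4 -1.44), and 1 each of the G1/S factors (SWI6), the mitotic exit network (CDC15 -1.40), the SIC1 cluster (RME1 -1.65), the Pho85 cyclins (PCL10 -1.24) and the transcriptional cyclins (CCL1 -1.13). Higher were WSC4 of the CLB2 cluster (1.40) and PCL5, a Pho85 cyclin of amino acid starvation (1.18). With TMM the counts were 3 higher and 1 lower for the SBF and MBF targets, 3 higher and 0 lower each for the mitotic exit network and the CLB2 cluster, 2 higher and 0 lower each for the G1/S factors and the Pho85 cyclins, 1 higher for the G2/M and M/G1 factors (MCM1, 1.03), and 0 for the kinase list, the MCM2-7 genes, the SIC1 cluster and the transcriptional cyclins, with 8.65% of all genes called higher and 6.57% lower. With the replicate block the calls of CDC28, CAK1, SWI6, CDC34, SKP1, CDC15, SMC3, WSC4, MCM2, MCM4, PCL10, PCL5 and CCL1 were lost, with adjusted p between 0.0746 and 0.198, and those of APC11, CDC26, RFA3 and RME1 held. Without DMSO replicate 1 CAK1 (-0.73), SKP1 (-0.86), SMC3 (-0.93) and CCL1 (-0.79) were under a 2-fold change, without IAA replicate 1 CAK1 (-0.90) and CCL1 (-0.97), without IAA replicate 3 CAK1 (-0.93) and without DMSO replicate 3 PCL5 (0.93).

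**Figure D5:**
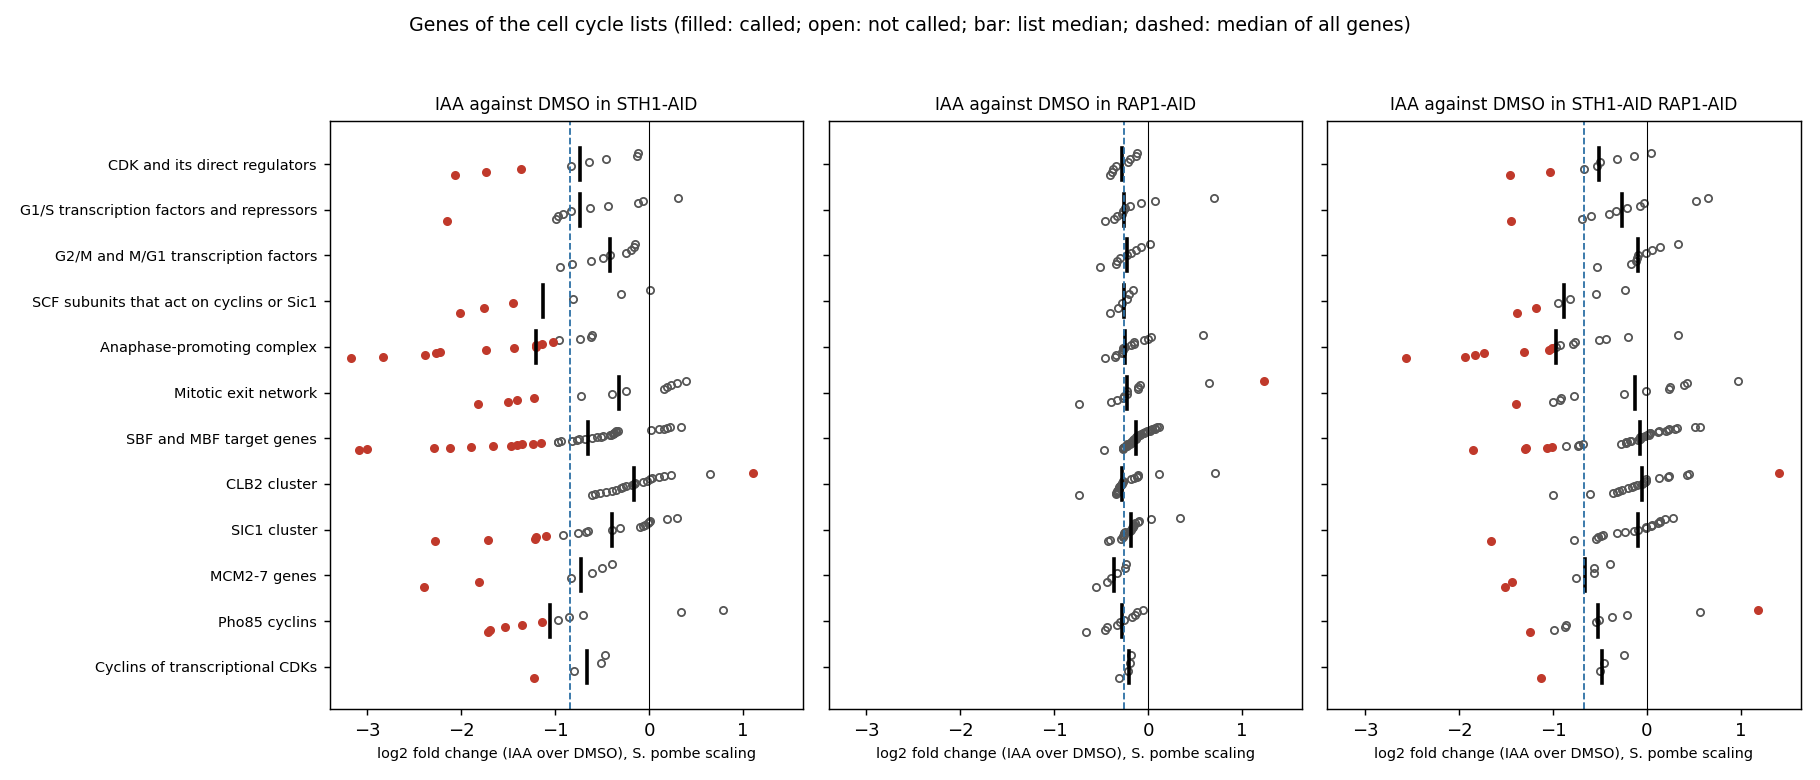
Log2 fold change of IAA over DMSO with S. pombe scaling (x axis) for the genes of 12 cell cycle lists (rows) in each degron strain, filled points called and open points not called, black bars at list medians and a dashed line at the median of all genes. The CLB2 cluster median of -0.16 in STH1-AID lay to the right of the dashed line at -0.84, and the anaphase-promoting complex median of -1.21 to its left.

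Over the 7 groups the genes most like CLN2 in mean log2 CPM were MDH1 (Pearson r 0.991), NDI1 (0.989) and YNL054W-A (0.981). Most like CLB2 were LCP5 (0.994), RRP45 (0.992) and ELO1 (0.991), and most like SIC1 were MCM22 (0.984), CAL4 (0.963) and YEL023C (0.962). These are the highest of 6254 genes over 7 points that share a single TMM scaling, and are given as a description. Among the 10 genes themselves r was highest between CLN3 and CLB5 (0.95), reached 0.907 between CLB1 and CLB2, and was -0.909 between CLB3 and CLB4 and -0.871 between CLN2 and CLB4, all on the TMM scale. With S. pombe scaling the log2 fold changes with IAA of both CLB3 and CLB4 were negative in each strain.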

How the data were processed

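Strand-specific paired mRNA-seq reads of 21 libraries were processed by the authors with cutadapt 1.9.1, BWA 0.5.9-r16 (R64-1-1 and ASM294v2), BamTools 2.4.0 and featureCounts of Subread 1.5.1, which kept uniquely mapped, unspliced fragments and counted a fragment over several genes for each. The deposited values are raw counts per gene for S. cerevisiae and S. pombe. Reads that related cyclins share would be lost by the unique mapping.

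Counts were fitted with edgeR 4.0.16 (R 4.3.3, quasi-likelihood) on all 21 libraries with 7 group terms, library sizes from S. pombe size factors, filterByExpr and Benjamini-Hochberg adjustment over 6254 genes. Other fits used TMM, DESeq2 1.42.0, no filter, a replicate block, the compared libraries alone, adjusted p alone and all but 1 library. The fit was tested on simulated data for STH1-AID, where 95 of 100 genes changed by 1.5 log2 and 100 of 100 changed by 2.5 were called, with 9 false calls among 6189 genes. The simulation used a single dispersion for all genes and took the S. pombe size factors as exact. It therefore cannot show how spread of the spike-in ratio between replicates bears on the calls. Named genes were the 10 genes, and in each list the 2 called genes with the largest fold change in each direction, plus regulators named by identity. Likeness was Pearson's r over the 7 group means. The members and lists were chosen with earlier results of these data known. Replicates are labelled as biological. The labels give replicate numbers and state no pairing of IAA and DMSO cultures. Numbers were taken as pairs where the deviations of libraries with the same number correlated above 0.1 for each number. With S. pombe scaling the correlations were 0.44 to 0.67 in STH1-AID RAP1-AID, 0.078 to 0.18 in STH1-AID and 0.097 to 0.16 in RAP1-AID. With TMM STH1-AID passed this cut as well (0.18 to 0.37).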

Additional observations from a re-analysis of the deposited data

Results flagged for a closer look

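The response to IAA differed between strains for 5 gene and strain pairs by a test of the difference itself. Between RAP1-AID and STH1-AID the response differed by 1.10 log2 for CLN1, 1.18 for CLB4, 1.21 for CLB6 and 1.40 for SIC1 (edgeR adjusted p = 0.0346, 0.019, 0.0172 and 0.00558), where 32.3% of all genes were called higher. Between STH1-AID RAP1-AID and STH1-AID it differed by 1.48 for CLB6 (edgeR adjusted p = 0.0317), where 1.28% were called higher, and this call was lost with the replicate block (1.51, edgeR adjusted p = 0.323) and in a fit of the compared libraries alone (edgeR adjusted p = 0.238).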

How the results depend on the processing

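No call or direction among the reported results changed with S. pombe size factors in DESeq2 or without the filter on low counts. The values that did change are given for the 10 genes as log2 differences or numbers of genes called, of IAA over DMSO or DMSO over WT, and their cause was not tested beyond the scaling shift itself. With TMM, in STH1-AID with IAA, 1 of the 10 were called higher in place of 0 and 0 of the 10 were called lower in place of 4 and the sign turned for CLN2 (0.43), CLN3 (0.27), CLB2 (0.83), CLB3 (0.63), CLB5 (0.22). In RAP1-AID with IAA, the sign turned for CLN1 (0.18), CLN2 (0.18), CLN3 (0.16), CLB2 (0.14), CLB5 (0.20), CLB6 (0.24). In the double strain with IAA, 1 of the 10 were called higher in place of 0 and the sign turned for CLN1 (0.47), CLN2 (0.69), CLB3 (0.55), SIC1 (0.23). In STH1-AID with DMSO, the sign turned for CLB3 (-0.025), CLB4 (-0.055). In RAP1-AID with DMSO, the sign turned for CLN1 (-0.11), CLN2 (-0.12), CLN3 (-0.058), CLB3 (-0.15), CLB4 (-0.024), CLB5 (-0.0084). Between RAP1-AID and STH1-AID, 0 of the 10 were called higher in place of 4 and 1 of the 10 were called lower in place of 0. With the size factors of DESeq2, in STH1-AID with IAA, 1 of the 10 were called higher in place of 0 and 0 of the 10 were called lower in place of 4 and the sign turned for CLN2 (0.41), CLN3 (0.24), CLB2 (0.80), CLB3 (0.60), CLB5 (0.19). In RAP1-AID with IAA, the sign turned for CLN1 (0.14), CLN2 (0.13), CLN3 (0.11), CLB2 (0.10), CLB5 (0.15), CLB6 (0.19). In the double strain with IAA, 3 of the 10 were called higher in place of 0 and the sign turned for CLN1 (0.50), CLN2 (0.71), CLB3 (0.58), SIC1 (0.26). In STH1-AID with DMSO, the sign turned for CLB3 (-0.033), CLB4 (-0.062). In RAP1-AID with DMSO, the sign turned for CLN1 (-0.10), CLN2 (-0.10), CLN3 (-0.046), CLB3 (-0.14), CLB4 (-0.012). Between RAP1-AID and STH1-AID, 0 of the 10 were called higher in place of 4 and 1 of the 10 were called lower in place of 0. Comparing the double strain with RAP1-AID, 1 of the 10 were called higher in place of 0. With a replicate block and TMM, in STH1-AID with IAA, 1 of the 10 were called higher in place of 0 and 0 of the 10 were called lower in place of 4 and the sign turned for CLN2 (0.39), CLN3 (0.22), CLB2 (0.78), CLB3 (0.58), CLB5 (0.18). In RAP1-AID with IAA, the sign turned for CLN1 (0.11), CLN2 (0.11), CLN3 (0.092), CLB2 (0.075), CLB5 (0.13), CLB6 (0.17). In the double strain with IAA, 1 of the 10 were called higher in place of 0 and the sign turned for CLN1 (0.42), CLN2 (0.63), CLB3 (0.51), SIC1 (0.18). In STH1-AID with DMSO, the sign turned for CLB3 (-0.019), CLB4 (-0.049). In RAP1-AID with DMSO, the sign turned for CLN1 (-0.077), CLN2 (-0.089), CLN3 (-0.030), CLB3 (-0.12). Between RAP1-AID and STH1-AID, 0 of the 10 were called higher in place of 4 and 1 of the 10 were called lower in place of 0. Comparing the double strain with RAP1-AID, 1 of the 10 were called higher in place of 0. By adjusted p alone, in the double strain with IAA, 1 of the 10 were called higher in place of 0 and 1 of the 10 were called lower in place of 0. In RAP1-AID with DMSO, 1 of the 10 were called higher in place of 0. With the replicate block, in the double strain with IAA, the sign turned for CLN2 (0.045). Comparing the double strain with STH1-AID, 0 of the 10 were called higher in place of 1. With the compared libraries alone, for the difference of the double strain from STH1-AID, 0 of the 10 were called higher in place of 1.

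Leaving out a single library turned signs or moved counts as follows. In STH1-AID with IAA, the range was 3 to 4 for genes called lower, -0.24 to 0.27 for CLB2, -0.40 to 0.028 for CLB3. In RAP1-AID with IAA, the range was -0.21 to 0.014 for CLB5, -0.19 to 0.055 for CLB6. In the double strain with IAA, the range was 0 to 1 for genes called higher, 0 to 1 for genes called lower, -0.34 to 0.086 for CLN1, -0.19 to 0.30 for CLN2, -0.10 to 0.41 for CLN3, -0.33 to 0.20 for CLB3. In STH1-AID with DMSO, the range was -0.22 to 0.40 for CLB1, -0.17 to 0.34 for CLB2, -0.22 to 0.28 for CLB3, -0.28 to 0.26 for CLB4, -0.12 to 0.38 for SIC1. In RAP1-AID with DMSO, the range was 0 to 1 for genes called higher. In the double strain with DMSO, the range was -0.35 to 0.11 for CLN1, -0.48 to 0.026 for CLN2, -0.10 to 0.42 for CLN3, -0.49 to 0.0043 for CLB1, -0.29 to 0.30 for CLB2, -0.40 to 0.15 for CLB3, -0.48 to 0.14 for CLB4, -0.29 to 0.28 for CLB5, -0.17 to 0.34 for CLB6. Between RAP1-AID and STH1-AID, the range was 1 to 4 for genes called higher. Comparing the double strain with STH1-AID, the range was 0 to 4 for genes called higher.

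The replicate block applied to IAA and DMSO cultures of STH1-AID RAP1-AID, whose numbers were taken as pairs by their correlation. It took the called genes over the genome to 105 higher and 506 lower. These stand in place of 157 and 1950 in a fit of the same libraries without the block and 218 and 2039 in the fit of all libraries. In the other comparisons the lowest correlation was under 0.1 with S. pombe scaling, so the samples were not treated as pairs. Every sample of STH1-AID and RAP1-AID still correlated best with its own number between IAA and DMSO. The 4 calls in STH1-AID held with the block. The median SE over all genes was 0.32 log2 in STH1-AID with S. pombe scaling, against 0.096 with TMM.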
